A study of Mus musculus with 8 samples.

Results

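The 43 genes described here encode the core machinery that drives a cell through its division cycle: cyclins, the cyclin-dependent kinases (CDKs) they activate, CDK inhibitors, the CDK-activating and CDK-restraining enzymes, the retinoblastoma (pocket) proteins, and the E2F, DP, Foxm1 and B-Myb transcription factors that these kinases govern. They were listed by name from this pathway, by a rule that sets no threshold on a measured value but with earlier results of these data known, and were read out of the 54752 gene identifiers in each count table. All 43 were kept when genes with low counts were removed (edgeR's filterByExpr at a minimum count of 10), as were 17865 genes in all, and the 43 had between 82 (*Cdkn3*) and 12207 (*Ccnd2*) counts per brain.

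The study asked how stress of the mother changes gene expression in the fetal brain. Pregnant wild-type C57BL/6 dams (C57BL/6Slac in the study's methods) were exposed to chronic unpredictable mild stress, a changing series of mild stressors, or were left in their home cages, and poly(A) RNA of brains collected at E15.5 was sequenced as 1 library per brain. The control group held females F36 and F37 and males M30 and M31, and the stress group females F34 and F35 and males M28 and M29. All controls were littermates and all stressed brains came from another single litter. An effect of litter and an effect of stress thus cannot be told apart, and p-values describe the spread among littermates. The total was between 25320109 and 29105710 counts per brain. Expression is given as CPM, the count of a gene per 1000000 counts of a library whose total was scaled by edgeR's TMM method. The log2 fold change (Log2FC, stress vs. control) and its standard error (SE) come from edgeR's quasi-likelihood test in a model of sex and condition. Calls were made where the p adjusted by Benjamini-Hochberg over all 17865 genes was under 0.05.

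In a cycling progenitor, D-type cyclins with Cdk4 or Cdk6 phosphorylate the pocket proteins, which frees E2F factors to switch on genes for DNA replication, among them the E-type cyclins that act with Cdk2. Later in the cycle, cyclin A and B activate Cdk1, the Cdc25 phosphatases remove the inhibitory phosphates that Wee1 and Myt1 place on it, and B-Myb and Foxm1 act with the MuvB complex at genes for mitosis. In the embryonic brain these genes are used mainly by radial glia and intermediate progenitors of the germinal zones, and most are turned down when a cell becomes a neuron.

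In the stressed brains 23 of the 43 regulators were higher and 0 were lower. Over all genes tested, 6.49% were called higher and 7.27% lower in stress by the same test. The study had already named *Ccna2*, *Ccnb1*, *Ccnb2*, *Ccnd2*, *Ccnf*, *Cdk1* and *Cdk4* among its up-regulated genes. The contrast with all genes is therefore not independent of earlier results. Without adjustment, 31 of the 43 were higher and 0 lower at p under 0.05, against 13.2% and 13.7% of all genes, and DESeq2's Wald test called 17 higher and 0 lower. The differences were small, between 9.42% (*Ccnd1*) and 25.5% (*E2f2*) above control for the called genes, with a median of 13.9%. Log2FC was above 0 for 41 of the 43 and below 0 for *Ccnd3* and *Cdkn2d*, while over all genes 50.6% were above 0. The median Log2FC of the 43 was 0.16 and that of all genes tested 0.0015. For 23 of the 43, all 4 stressed brains were above all 4 controls, against 8.20% of all genes, and for 0 of the 43 were they all below, against 8.22%. Of the called genes *Ccnd1*, *E2f7* and *Foxm1* overlapped between the groups, and *Cdkn3*, *E2f3* and *E2f6* did not overlap but were not called. In bulk RNA, more cells of a type and more RNA per cell cannot be told apart.

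**Figure D1:**
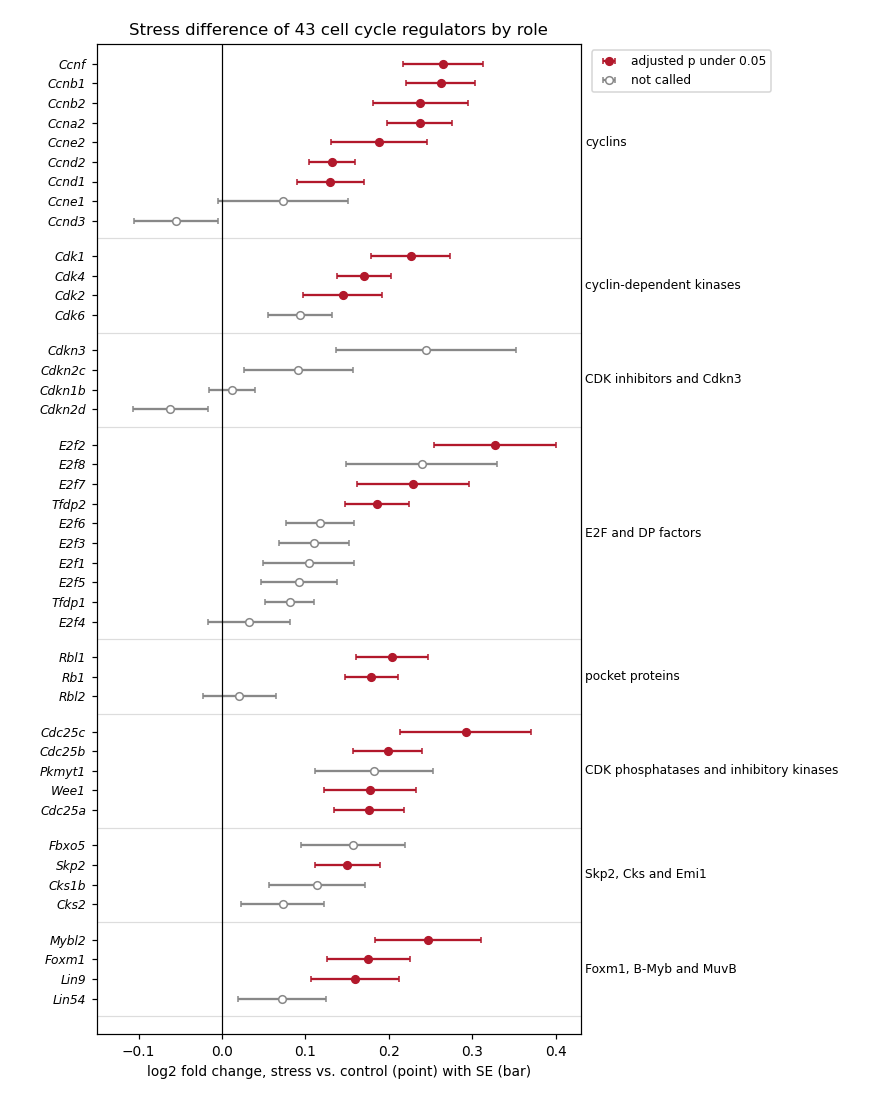
Log2FC of stress vs. control (x axis, log2 scale) for the 43 regulators, grouped by role. Points are edgeR estimates from 4 stressed and 4 control brains, bars are SE, filled red points were called and open grey points were not. The 23 called genes lie between 0.13 and 0.33, and only *Ccnd3* and *Cdkn2d* lie below 0.

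To show what the promoters of these genes have in common, 300 bases around the RefSeq start site (250 before to 50 after, GRCm38.p6) were searched on both strands for 4 kinds of element. These were the cell cycle homology region (CHR, TTTGAA), through which MuvB complexes bind, the CCAAT box (CCAAT), the site of NF-Y, an E2F site (written as TTTCCCG, with the forms TTTCGCG and also TTTGCCG and also TTTGGCG) and the GC box (GGGCGG). Matches that overlap each other were each counted. RefSeq promoters were matched for 31 of the 43 genes, 14 called and 17 not called. The stretches below are the 150 bases before the start site, 5′ to 3′, with CHR, CCAAT and E2F letters in capitals, also where they read on the opposite strand (as TTCAAA for a CHR or ATTGG for a CCAAT box). They were picked as the mitotic cyclins and kinase, 2 called genes with an E2F site, and *Cks1b*, which held all 3 elements and was not called.
Ccnb1 (cyclin B1, chr13:100786487-100786636, minus strand): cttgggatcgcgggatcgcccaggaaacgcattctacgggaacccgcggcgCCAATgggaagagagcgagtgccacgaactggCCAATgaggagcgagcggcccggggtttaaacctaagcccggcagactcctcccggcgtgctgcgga
Ccnb2 (cyclin B2, chr9:70421555-70421704, minus strand): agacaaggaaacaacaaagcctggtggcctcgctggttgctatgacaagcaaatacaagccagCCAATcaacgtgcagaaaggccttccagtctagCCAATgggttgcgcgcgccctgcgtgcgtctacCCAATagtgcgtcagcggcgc
Ccnf (cyclin F, chr17:24251410-24251559, minus strand): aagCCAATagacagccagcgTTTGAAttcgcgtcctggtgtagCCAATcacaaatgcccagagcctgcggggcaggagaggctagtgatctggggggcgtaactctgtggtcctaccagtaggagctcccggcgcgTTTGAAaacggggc
Cdk1 (the mitotic kinase, chr10:69352913-69353062, minus strand): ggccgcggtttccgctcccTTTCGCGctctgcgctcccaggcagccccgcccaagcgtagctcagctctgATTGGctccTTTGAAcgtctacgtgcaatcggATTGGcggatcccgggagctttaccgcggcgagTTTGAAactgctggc
Cdc25a (a CDK phosphatase, chr9:109875429-109875578, plus strand): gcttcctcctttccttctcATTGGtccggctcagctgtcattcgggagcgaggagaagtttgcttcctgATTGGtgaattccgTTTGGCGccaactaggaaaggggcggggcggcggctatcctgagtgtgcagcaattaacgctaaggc
Rbl1 (a pocket protein, chr2:157204535-157204684, minus strand): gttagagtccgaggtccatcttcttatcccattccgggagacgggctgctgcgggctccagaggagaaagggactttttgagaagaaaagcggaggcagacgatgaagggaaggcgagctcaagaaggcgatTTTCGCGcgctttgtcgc
Cks1b (a CDK subunit, not called, chr3:89418292-89418441, minus strand): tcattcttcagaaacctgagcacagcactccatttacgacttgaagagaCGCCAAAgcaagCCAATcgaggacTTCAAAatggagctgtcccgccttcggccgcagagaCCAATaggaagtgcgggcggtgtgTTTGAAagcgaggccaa

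In the printed stretches, *Ccnb1* had CCAAT boxes beginning 99 and 67 bases before its start, 32 bases apart. *Ccnb2* had 3 boxes, each 33 bases from the next. Outside its printed stretch, *Ccnb2* also held CHR letters 167 bases before and 5 bases after its start. *Cdk1* had a pair of CCAAT boxes 32 bases apart, with CHR letters 71 and 15 bases before its start. *Ccnf* held a CHR 14 and another 130 bases before its start, and *Rbl1* held a lone E2F site 18 bases before it. Across the 31 promoters, an E2F site was present in 32.3%, against 6.70% of all 32851 promoters in the table. A CHR was present in 35.5% against 17.9%, a CCAAT box in 58.1% against 37.4%, and a GC box in 83.9% against 35.7%. Between called and not called genes the shares were close for some elements and apart for others, with no test made. An E2F site was in 7 of 14 called and 3 of 17 not called genes, and a CCAAT box in 10 and 8. A CHR was in 4 and 7, and a GC box in 11 and 15. The exact CHR, CCAAT and E2F letters were all missing from 8 windows. Among the called genes these were the windows of *Cdk4* and *Mybl2*, and among the others *E2f6*, *Cdk6*, *E2f1*, *Cdkn2c*, *Ccnd3* and *Ccne1*. Only the exact letters given above were searched. A site written in another form would be missed, so missing letters do not show that a gene lacks the site. The windows describe the RefSeq start used, which for some genes lay inside the gene as given in the count table. The distance from the 5′ end was 62430 bases for *Tfdp2*, 2408 for *Cdk6*, 466 for *E2f1* and 433 for *Cdkn2c*. Their windows do not reach that 5′ end, so letters missing from them say nothing of the sequence before it. *Wee1*, *E2f5*, *Ccnd2*, *Ccne2*, *Foxm1*, *E2f4*, *Ccna2*, *Pkmyt1*, *Ccnd1*, *Rb1*, *Lin9* and *Cdc25c* were not matched.

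Of the 9 cyclins, 7 rose and *Ccnd3* and *Ccne1* were not called. The estimates were larger for the mitotic than for the D-type cyclins, a difference that was not tested. *Ccnb1* (ENSMUSG00000041431.16, chr13:100778650-100786570, mm10), which activates Cdk1 at entry into mitosis, had the smallest p of the 43 genes. Its expression was 43.1, 39.6, 43.2 and 40.2 CPM in controls F36, F37, M30 and M31, and 48.0, 47.6, 49.9 and 53.5 CPM in stressed F34, F35, M28 and M29. Every stressed brain was above every control, with a Log2FC of 0.26 ± 0.04 (SE, n = 4 vs. 4, edgeR's quasi-likelihood test, adjusted p = 0.000134). Of the *Ccnb1* transcript, 51.9% has near-identical copies elsewhere in the genome, so reads from it may be lost or counted elsewhere. *Ccna2* encodes cyclin A2, needed for DNA replication and for entry into mitosis. It was at 57.0, 51.7, 55.4 and 56.1 CPM in the controls and at 63.0, 60.3, 65.9 and 70.1 CPM in the stressed brains, in the same order. The groups did not overlap, and Log2FC was 0.24 ± 0.04 (edgeR adjusted p = 0.00016), with 12.5% of its exon bases shared with *Exosc9*. *Ccnf*, an F-box cyclin that directs proteins for degradation and activates no CDK, was at 23.8, 23.5, 22.9 and 22.1 CPM in control and 28.6, 25.9, 27.5 and 28.8 CPM in stress. All stressed brains were again higher, with a Log2FC of 0.27 ± 0.05 (edgeR adjusted p = 0.000449).

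The other mitotic cyclin, *Ccnb2*, rose from 18.1 ± 1.31 to 21.4 ± 1.18 CPM (mean ± SD, n = 4 each), with a Log2FC of 0.24 ± 0.06 and an edgeR adjusted p of 0.00585. The D-type cyclins couple growth signals to the cycle, and *Ccnd2*, the most abundant of them here, rose from 376 ± 12.5 to 412 ± 16.2 CPM (Log2FC 0.13 ± 0.03, edgeR adjusted p = 0.00198). Its groups came close to touching, with a highest control of 387 CPM (M30) and a lowest stressed brain of 388 CPM (F35). *Ccnd1* also had a Log2FC of 0.13 ± 0.04 (edgeR adjusted p = 0.0324), its groups overlapped, and 23.4% of its exon bases are shared with another gene. *Ccnd3*, the third D-type cyclin, was at 24.5 ± 1.44 CPM in control and 23.6 ± 0.93 CPM in stress, a Log2FC of -0.06 ± 0.05 (edgeR adjusted p = 0.532). Of the E-type cyclins, the partners of Cdk2 at the start of DNA replication, *Ccne2* rose by 13.9% (Log2FC 0.19 ± 0.06, edgeR adjusted p = 0.0288), with 17.4% of its exon bases shared with *Ints8*. *Ccne1* was at 8.23 ± 0.44 CPM in control and 8.65 ± 0.62 CPM in stress, with overlapping groups (Log2FC 0.07 ± 0.08, edgeR adjusted p = 0.606).

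**Figure D2:**
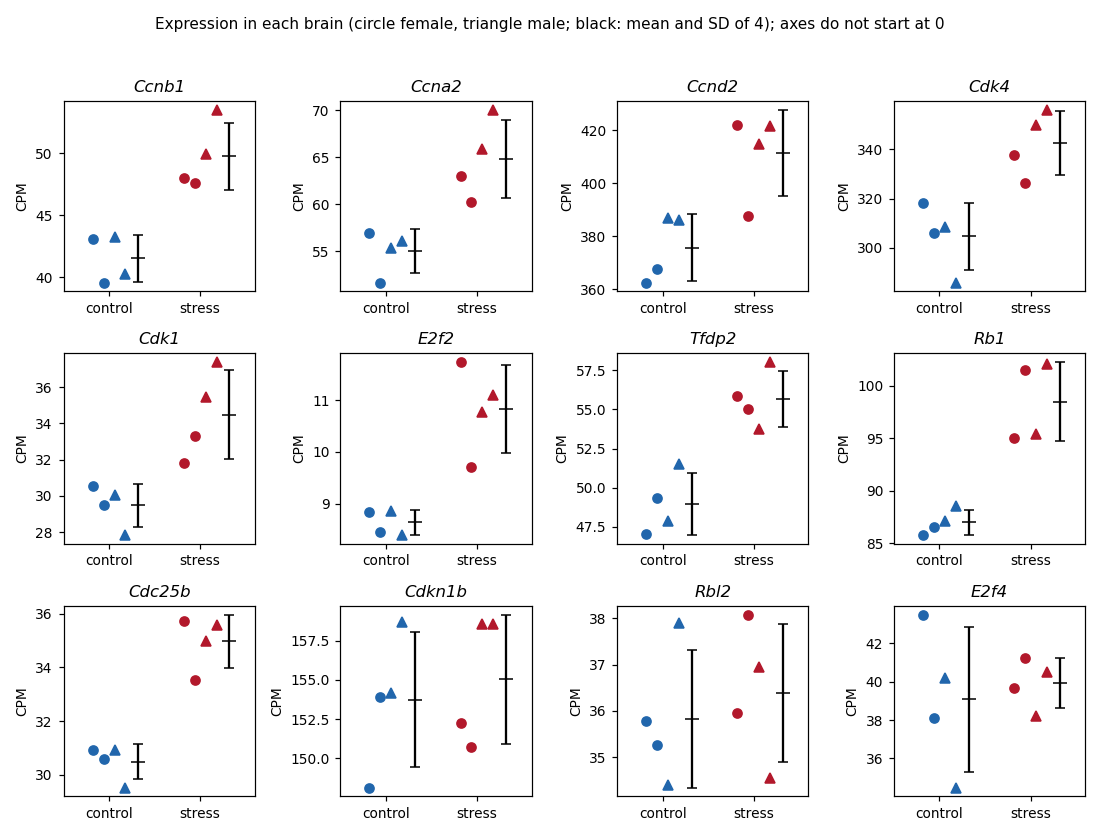
Expression in CPM (y axis, not starting at 0) in each brain for 9 called and 3 not called regulators. Circles are females, triangles are males, and the black bar is the mean and SD of 4 brains. In the 9 called genes all stressed brains lie above all controls, narrowly so for *Ccnd2*, and the groups of *Cdkn1b*, *Rbl2* and *E2f4* overlap.

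Of the 4 CDK genes, 3 rose. *Cdk4*, the kinase partner of D-type cyclins (ENSMUSG00000006728.12, chr10:127063534-127067920), was at 318, 306, 308 and 286 CPM in controls F36, F37, M30 and M31 and at 338, 326, 350 and 356 CPM in stressed F34, F35, M28 and M29. The stressed males were the highest of the 8 brains, and Log2FC was 0.17 ± 0.03 (edgeR adjusted p = 0.000777). *Tspan31*, on the other strand, covers 19.7% of the *Cdk4* exon bases. *Cdk1*, the kinase of mitosis, was at 30.5, 29.5, 30.04 and 27.8 CPM in control and 31.8, 33.3, 35.4 and 37.4 CPM in stress, with no overlap (Log2FC 0.23 ± 0.05, edgeR adjusted p = 0.00204). *Cdk2*, the partner of cyclins E and A, was at 21.6, 21.6, 21.4 and 20.4 CPM in control and 22.9, 23.6, 24.3 and 23.2 CPM in stress. The groups did not overlap, but the difference was small (Log2FC 0.14 ± 0.05, edgeR adjusted p = 0.0416). *Cdk6*, which like Cdk4 binds D-type cyclins, was at 45.5 ± 0.97 CPM in control and 48.5 ± 2.93 CPM in stress and was not called (Log2FC 0.09 ± 0.04, edgeR adjusted p = 0.108).

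Of the 4 genes listed as CDK inhibitors or as *Cdkn3*, edgeR and DESeq2 each called 0 higher and 0 lower. Among them *Cdkn3* alone had an unadjusted edgeR p under 0.05. *Cdkn1b*, the Cip/Kip inhibitor that holds progenitors and young neurons out of the cycle, was at 154 ± 4.32 CPM in control and 155 ± 4.15 CPM in stress (Log2FC 0.01 ± 0.03, edgeR adjusted p = 0.832). The INK4 inhibitors, which bind Cdk4 and Cdk6, had Log2FC values on both sides of 0, at 0.09 ± 0.07 for *Cdkn2c* and -0.06 ± 0.05 for *Cdkn2d*, with edgeR adjusted p of 0.403 and 0.414. *Cdkn3*, a phosphatase that removes the activating phosphate from Cdk2, was the least abundant of the 43 genes at 3.18 ± 0.18 CPM in control. It was at 3.77 ± 0.14 CPM in stress, and all stressed brains were above all controls, but at 82 to 111 counts per brain the SE was the largest of all 43 (Log2FC 0.24 ± 0.11, edgeR adjusted p = 0.141).

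Among the 8 E2F and both DP genes 3 rose, and all 10 had a Log2FC above 0. *Tfdp2*, a DP partner that E2F proteins need to bind DNA, was at 47.0, 49.4, 47.9 and 51.5 CPM in controls F36, F37, M30 and M31 and at 55.9, 55.0, 53.8 and 58.0 CPM in stressed F34, F35, M28 and M29. Its groups did not overlap (Log2FC 0.19 ± 0.04, edgeR adjusted p = 0.00159). *E2f2* (ENSMUSG00000018983.9, chr4:136172394-136196057), an activator E2F, had the largest Log2FC of the 43 genes, with 8.85, 8.46, 8.85 and 8.40 CPM in control and 11.7, 9.72, 10.8 and 11.1 CPM in stress. All stressed brains were above all controls, F35 by the least (Log2FC 0.33 ± 0.07, edgeR adjusted p = 0.00317). *E2f7*, an atypical E2F that represses its targets without a DP partner, was at 11.6, 12.2, 13.0 and 12.5 CPM in control and 16.0, 12.9, 14.5 and 14.4 CPM in stress. Stressed F35 lay below control M30, and Log2FC was 0.23 ± 0.07 (edgeR adjusted p = 0.0232). *E2f8*, the other atypical member, had a like Log2FC of 0.24 ± 0.09 but was not called (edgeR adjusted p = 0.0789), and 11.2% of its exon bases are shared with another gene.

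The remaining E2F and DP genes had smaller differences. The activators *E2f1* and *E2f3* had Log2FC values of 0.10 ± 0.05 and 0.11 ± 0.04, and *E2f6*, a repressor that does not bind pocket proteins, of 0.12 ± 0.04, with edgeR adjusted p of 0.226, 0.0804 and 0.0545. The factors that mainly repress together with pocket proteins, *E2f4* and *E2f5*, had Log2FC values of 0.03 ± 0.05 and 0.09 ± 0.05 (edgeR adjusted p = 0.733 and 0.2). *Tfdp1*, the more abundant DP gene, was at 102 ± 1.79 CPM in control and 107 ± 2.95 CPM in stress (Log2FC 0.08 ± 0.03, edgeR adjusted p = 0.0669), and 43.2% of its transcript has a near-identical copy elsewhere. Within the activators *E2f2* was therefore the one gene called, but the differences between the 3 were not tested.

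Of the 3 pocket protein genes 2 rose. *Rb1*, the retinoblastoma gene (ENSMUSG00000022105.6, chr14:73183673-73325822), was at 85.8, 86.5, 87.1 and 88.5 CPM in controls F36, F37, M30 and M31 and at 95.0, 101, 95.4 and 102 CPM in stressed F34, F35, M28 and M29. The lowest stressed brain was above the highest control by more than the whole range of the controls (Log2FC 0.18 ± 0.03, edgeR adjusted p = 0.000393). *Rcbtb2* and *Lpar6* on the other strand cover 14.9% of its exon bases. *Rbl1*, which is itself raised in cycling cells, was at 26.3, 26.0, 27.0 and 27.0 CPM in control and 31.03, 28.96, 30.4 and 32.1 CPM in stress, with no overlap (Log2FC 0.20 ± 0.04, edgeR adjusted p = 0.00205). *Rbl2*, the pocket protein most tied to resting cells, was at 35.8 ± 1.49 CPM in control and 36.4 ± 1.5 CPM in stress (Log2FC 0.02 ± 0.04, edgeR adjusted p = 0.813), and 21.0% of its exon bases are shared with other genes.

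All 3 Cdc25 phosphatase genes rose. *Cdc25b* was at 30.9, 30.6, 30.9 and 29.5 CPM in controls F36, F37, M30 and M31 and at 35.7, 33.5, 34.99 and 35.6 CPM in stressed F34, F35, M28 and M29. The groups were well apart (Log2FC 0.20 ± 0.04, edgeR adjusted p = 0.00178). *Cdc25a*, which acts also before DNA replication, was at 40.0, 41.1, 39.1 and 36.3 CPM in control and 44.5, 42.7, 43.6 and 45.8 CPM in stress, again with no overlap (Log2FC 0.18 ± 0.04, edgeR adjusted p = 0.00548). *Cdc25c* was at 7.97, 8.99, 9.72 and 7.80 CPM in control and 11.2, 9.92, 10.2 and 10.9 CPM in stress. Its lowest stressed brain, F35, was just above its highest control, M30 (Log2FC 0.29 ± 0.08, edgeR adjusted p = 0.0129), and 23.7% of its transcript has a near-identical copy elsewhere. The opposing kinases moved the same way in estimate. *Wee1* rose from 18.3 ± 0.66 to 20.6 ± 1.53 CPM (Log2FC 0.18 ± 0.06, edgeR adjusted p = 0.0324), and *Pkmyt1*, which encodes Myt1, had the same Log2FC of 0.18 with a larger SE of 0.07 and was not called (edgeR adjusted p = 0.0872).

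*Skp2*, the F-box protein that marks the Cdkn1b protein for degradation, was at 39.0, 38.9, 43.4 and 43.1 CPM in controls F36, F37, M30 and M31 and at 45.3, 44.2, 44.9 and 47.9 CPM in stressed F34, F35, M28 and M29. The control males lay close to the stressed brains without overlapping them (Log2FC 0.15 ± 0.04, edgeR adjusted p = 0.0101). The small CDK-binding proteins, of which Cks1 assists Skp2, were not called, with Log2FC values of 0.11 ± 0.06 for *Cks1b* and 0.07 ± 0.05 for *Cks2* (edgeR adjusted p = 0.204 and 0.374). *Fbxo5*, which encodes the anaphase-promoting complex inhibitor Emi1, had a Log2FC of 0.16 ± 0.06 (edgeR adjusted p = 0.0956). Of the *Cks2* transcript, 34.7% has near-identical copies elsewhere.

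Of the Foxm1, B-Myb and MuvB genes 3 of 4 rose. *Mybl2*, which encodes B-Myb, was at 12.2, 11.7, 11.4 and 11.4 CPM in controls F36, F37, M30 and M31 and at 13.9, 12.7, 14.1 and 14.5 CPM in stressed F34, F35, M28 and M29. No stressed brain overlapped the controls (Log2FC 0.25 ± 0.06, edgeR adjusted p = 0.00986), and 28.3% of the transcript has near-identical copies elsewhere. *Foxm1*, a forkhead activator of genes for mitosis, was at 42.7, 41.2, 44.7 and 41.1 CPM in control and 52.1, 41.7, 48.9 and 48.8 CPM in stress. Stressed F35 was within the controls and the other 3 were above them (Log2FC 0.18 ± 0.05, edgeR adjusted p = 0.0184). *Lin9*, a core MuvB subunit, was at 17.5, 15.9, 17.3 and 17.0 CPM in control and 18.8, 18.8, 19.0 and 19.0 CPM in stress. The stressed brains were nearly equal to each other and all above the controls (Log2FC 0.16 ± 0.05, edgeR adjusted p = 0.0427). *Lin54*, the MuvB subunit that contacts CHR DNA, had a Log2FC of 0.07 ± 0.05 and was not called (edgeR adjusted p = 0.42).

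Per exon length, the 43 genes spanned a wide range of levels in the control brains, from 93.8 ± 4.17 (SD, n = 4) CPM per kilobase of exon for *Cdk4* to 1.34 ± 0.08 for *Cdkn3*, a ratio of 69.8. *Cdk4* stood apart at the top, followed by *Ccnd2* at 39.9 ± 1.33 and *Cdkn1b* at 33.8 ± 0.95. The ranges of these 3 over the control brains did not overlap. *Cks2* (26.9 to 29.6) and *Tfdp1* (27.4 to 28.4) came next and overlapped each other. *Cks1b* and *Cdkn2d*, both at 19.99 in control, could not be ordered. Below 10 were 31 of the 43 genes. At the lower end, *E2f8* (1.36 to 1.79), *E2f7* (1.29 to 1.44) and *Cdkn3* (1.25 to 1.41) overlapped with their neighbours, and *E2f2* (1.72 to 1.81) overlapped with *E2f8*. Within families the levels differed widely, as *Ccnd2* was at 39.9 with *Ccnd1* at 7.99 and *Ccnd3* at 2.79, and *Cdk4* at 93.8 with *Cdk6* at 3.25. The called genes were found over the whole range, from *Cdk4* at the top to *E2f7* as the second lowest.

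**Figure D3:**
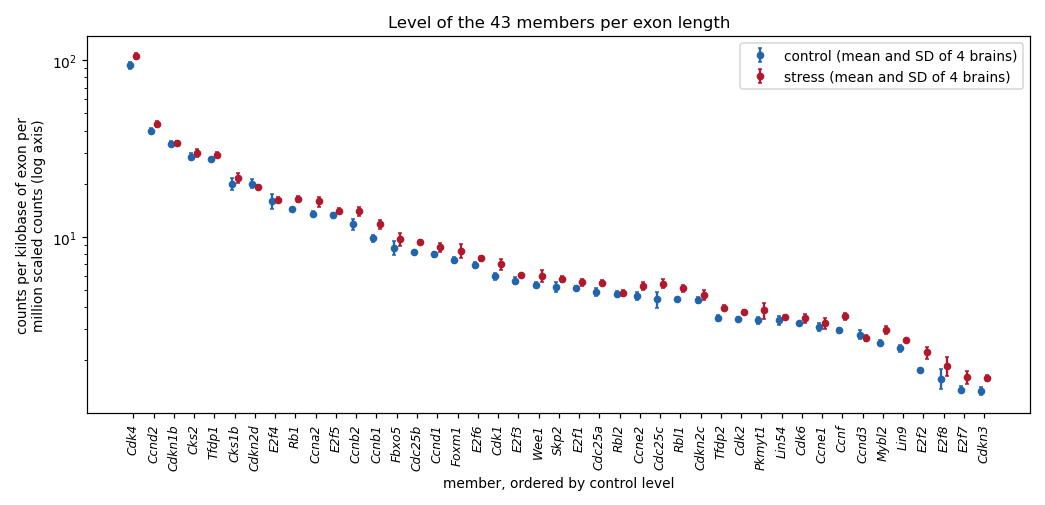
Level of the 43 regulators in CPM per kilobase of exon (y axis, log scale), ordered by the control mean (x axis). Points are means and bars the SD of 4 control (blue) and 4 stressed (red) brains, and *Cdk4* lies highest at 93.8 in control while 31 genes lie under 10.

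The summed level of the 43 genes was 1985, 1959, 2009 and 1967 CPM in controls F36, F37, M30 and M31 and 2164, 2094, 2194 and 2250 CPM in stressed F34, F35, M28 and M29. Each stressed brain was thus above each control, by 9.89% on the means. Over the stress group, F35 was the lowest brain for 28 of the 43 genes and M29 the highest for 22. F35 was nonetheless above every control for 26 of the 43 genes, and F34, M28 and M29 for 34, 36 and 36. In the control group no brain stood out in the same way, with M31 the lowest for 17 and M30 the highest for 16. The median coefficient of variation over the genes was 4.17% among controls and 4.35% among stressed brains.

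In each sex 2 stressed brains were compared with 2 controls, a size at which no exact two-sided permutation p can be below 0.333. Log2FC was above 0 for 39 of the 43 genes in females and for 42 in males, against 50.3% and 50.7% of all genes. Over the 43 genes the median Log2FC was 0.12 in females and 0.18 in males, and for all genes tested it was 0.0013 and 0.0028. For 32 of the 43 the estimate was larger in males, against 49.3% of all genes. For the difference between the sexes itself, edgeR's interaction test called 0 of the 43 (smallest adjusted p = 0.584) and 0.00560% of all genes. At an unadjusted p under 0.05 the interaction passed for *Cdk4*, *Cdk1*, *Cdkn2d* and *Cks1b*, 4 of the 43, against 6.31% of all genes. *Cdk4* had a Log2FC of 0.09 ± 0.04 in females and 0.25 ± 0.04 in males, and *Cdk1* of 0.12 ± 0.06 and 0.33 ± 0.06. *Cks1b* was at 0.00 ± 0.08 in females and 0.23 ± 0.08 in males. Between males and females irrespective of stress, 0 of the 43 were called, against 0.0896% of all genes, with a smallest edgeR adjusted p of 0.778. At an unadjusted p under 0.05 were 7 of the 43, against 5.91% of all genes, and all 7 were higher in males, by 0.06 to 0.10 on the log2 scale.

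**Figure D4:**
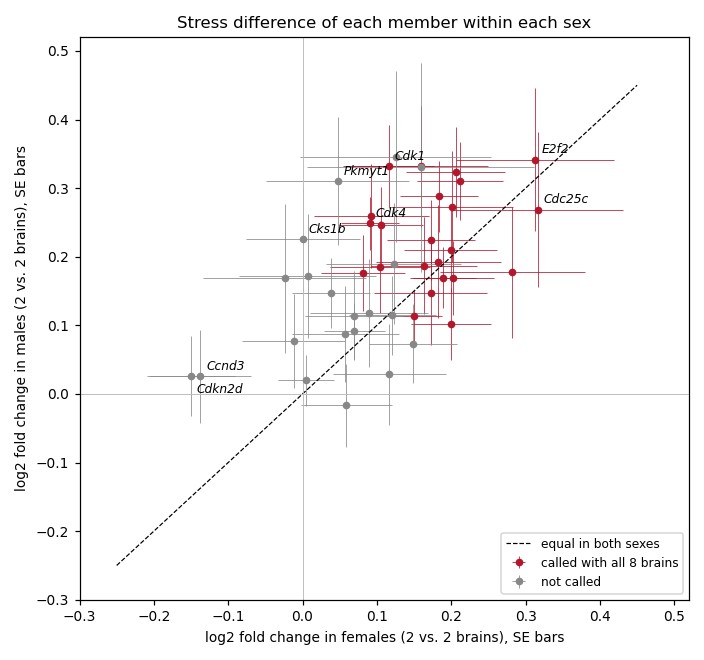
Log2FC of stress vs. control in females (x axis) and in males (y axis), each from 2 stressed and 2 control brains, for the 43 regulators. Bars are SE, red points were called with all 8 brains, and the dashed line marks equal values. Of the points, 32 lie above the line, and the interaction was called for none of them.

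Other genes of the same machinery were read from a list of 32, of which 29 passed the filter and *Ccnb3*, *Cdkn2a* and *Cdkn2b*, at 10 or fewer counts in every brain, did not. Of these 7 were higher and 1 was lower, against 6.49% and 7.27% of all genes. Without M29, 4 were higher, and DESeq2 called 6 higher and 1 lower. By list, 4 of 7 genes for mitotic kinases and their cofactors and 2 of 9 ubiquitin ligase genes were higher. Among them was *Cdc20*, an activator of the anaphase-promoting complex, at a Log2FC of 0.28 ± 0.04 (edgeR adjusted p = 0.000108). The mitotic kinases *Aurkb*, *Plk1* and *Aurka* were at 0.26 ± 0.05, 0.25 ± 0.06 and 0.21 ± 0.06. *Bora*, the Aurora A cofactor, and *Anapc1*, a subunit of the complex, were at 0.21 ± 0.06 and 0.09 ± 0.03. *Cdc20*, *Aurkb* and *Plk1* were called in all 8 fits that left out 1 brain. *Aurka* and *Bora* were called in 5 of these fits and *Anapc1* in 3. DESeq2 did not call *Aurka*, and the groups of *Plk1* and *Bora* overlapped. Of the Cip/Kip inhibitors next to *Cdkn1b*, the group went in both directions. *Cdkn1c* rose from 73.3 ± 1.78 to 84.5 ± 4.87 CPM (Log2FC 0.20 ± 0.03, edgeR adjusted p = 0.000245). *Cdkn1a*, a p53 target, was at 28.3, 27.0, 25.9 and 29.8 CPM in controls F36, F37, M30 and M31 and at 22.0, 23.0, 22.0 and 20.7 CPM in stressed F34, F35, M28 and M29, and its Log2FC was -0.34 ± 0.05 (edgeR adjusted p = 5.86e-05). The CDK-activating kinase genes and the cyclins beside them (6 tested) had 0 called in either direction by edgeR or DESeq2. The same held for the remaining MuvB and DREAM genes (5 tested). In each of these lists 1 gene was at an unadjusted edgeR p under 0.05. With lists this small, 0 called does not set them apart from all genes.

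Markers of several cell types moved with the groups. The shares over all genes to read beside the counts are 6.49% called higher and 7.27% called lower. Of 6 proliferation genes outside the 43, 5 were higher, among them *Mki67* (Log2FC 0.21 ± 0.03) and *Top2a* (0.24 ± 0.03). Of 8 markers of intermediate progenitors and neuroblasts 7 were higher, with *Eomes* at 0.25 ± 0.03. DESeq2 called 4 of the 8 higher, and 3 stayed called in each fit that left out 1 brain. Their summed level was 399 to 434 CPM in control and 443 to 499 CPM in stress. Of 9 radial glia markers 4 were higher (*Pax6*, *Sox2*, *Nes* and *Vim*, of which DESeq2 did not call *Nes*). Only *Pax6* and *Vim* stayed called in each fit that left out 1 brain. Of the other 5, *Sox9* had a Log2FC of 0.09 ± 0.04, and *Hes1*, *Hes5*, *Fabp7* and *Slc1a3* had values of -0.08 ± 0.08, -0.10 ± 0.08, -0.02 ± 0.03 and -0.04 ± 0.03, not called. The list had a summed level of 1575 to 1673 CPM in control and 1609 to 1737 CPM in stress. Of 8 neuron markers 5 were lower (*Rbfox3*, *Stmn2*, *Snap25*, *Syt1* and *Gap43*, of which DESeq2 did not call *Snap25*). Only *Rbfox3* and *Gap43* stayed called in each fit that left out 1 brain, and the groups of *Stmn2*, *Snap25* and *Syt1* overlapped. *Tubb3*, *Map2* and *Dcx* had Log2FC values of -0.02 ± 0.02, -0.04 ± 0.03 and 0.06 ± 0.03, not called. The neuron list had a summed level of 7017 to 7268 CPM in control and 6848 to 7182 CPM in stress. Endothelial markers were lower for 4 of 7, at 169 to 185 CPM in control and 151 to 162 CPM in stress. DESeq2 called 2 of the 7 lower, and *Tie1* alone had a Log2FC above 0 (0.14 ± 0.05, not called). Oligodendrocyte precursor markers were lower for 2 of 5, at 117 to 129 CPM in control and 104 to 109 CPM in stress. Fibroblast markers were higher for 3 of 4 tested, with a summed level of 12.4 to 25.7 CPM in control and 17.0 to 60.0 CPM in stress, where M28 was the highest, and DESeq2 called 0 of them. Of 4 choroid plexus markers *Ttr* alone was higher, which DESeq2 did not call, and their summed level was 2.19 to 10.1 CPM in control and 2.42 to 32.6 CPM in stress, where F34 was the highest. Of 7 microglia markers 0 were called by edgeR or DESeq2, with 0 at an unadjusted p under 0.05, and of 8 erythroid markers 2 were higher and 1 lower. The higher ones were the embryonic globins *Hbb-y*, at 2.14 to 3.97 CPM in control and 5.19 to 6.98 CPM in stress (Log2FC 0.84 ± 0.13, edgeR adjusted p = 0.00012), and *Hba-x*, at 1.34 to 2.15 and 3.22 to 4.38 CPM (Log2FC 1.09 ± 0.15, edgeR adjusted p = 2.21e-05). Both were called in each fit that left out 1 brain and by DESeq2, and their differences were larger than that of any of the 43 regulators. Of the adult globins, *Hbb-bs* was lower (Log2FC -0.14 ± 0.04, edgeR adjusted p = 0.00976) and *Hba-a1*, *Hba-a2* and *Hbb-bt* were not called. Of 6 muscle, skin and liver markers 2 could be tested, with 0 called by edgeR or DESeq2 and 0 at an unadjusted p under 0.05. The skin and liver markers *Krt5*, *Krt14*, *Alb* and *Afp* were at 4 or fewer counts in every brain. The part of these cell types in the differences of the 43 regulators was not tested. Without M28, 20 of the 43 were called higher, and without F34, 17 were, with 41 of 43 above 0 in both cases.

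Of the 23 called genes, 14 were called in each of the 8 fits that leave out 1 brain (2.93% of all genes were called higher in all of these). They were *Ccna2*, *Ccnb1*, *Ccnb2*, *Ccnd2*, *Ccnf*, *Cdk1*, *Cdk4*, *E2f2*, *Tfdp2*, *Rb1*, *Rbl1*, *Cdc25a*, *Cdc25b* and *Skp2*. *Mybl2* lost its call without M29 alone (adjusted p = 0.052 by edgeR's quasi-likelihood test). *Foxm1* lost it without F37, M31 or F34, *E2f7* without F36, F37 or F34, and *Cdc25c* without F36, M31 or F34. *Ccne2* lost it without F37, M30, F34 or M29, and *Wee1* without F37, M30, M31 or M29. *Ccnd1* was called in 3 of the 8 fits, and lost its call without F36, M30, F34, M28 or M29. *Cdk2* was called only without F34 and *Lin9* only without F36. DESeq2 called 17 of the 43 higher, against 4.19% of all genes, and did not call *Ccnd1*, *Ccne2*, *Cdk2*, *E2f7*, *Lin9* and *Wee1*.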

How the data were processed

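Raw counts per gene were deposited for each of 8 E15.5 brains. The authors trimmed paired reads with Trim Galore (quality 20), used TopHat2 2.1.1 on mm10 (at most 20 places per read) and counted read pairs on GENCODE exons with featureCounts 1.6.3, with no option stated for strand, several places or overlapping genes. A read pair shared by overlapping genes or near-identical copies may therefore be lost or misplaced. Exon overlap above 10% and copies at 97% identity over 100 bases are given beside the genes whose values they bear on.

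Counts were analysed with edgeR 4.0.16 in R 4.3.3 (limma 3.58.1) by filterByExpr (minimum count 10, by group), TMM, glmQLFit and glmQLFTest with sex and condition, and Benjamini-Hochberg adjustment over 17865 genes. SE is the Log2FC divided by the square root of F. The study's model also held batch, which is not named for these libraries. Brains of a group differed by more than sampling noise, so each was counted as its own sample. The chi-square per gene was 1.99 to 3.02 between brains of the same sex and 4.09 to 6.28 across the sexes. Totals of 25320109 to 29105710 counts left the regulators at 82 to 12207 counts per brain. Alternatives were DESeq2 1.42.0, other size factors, no filter, no sex term and each brain left out. The 43 genes and all lists were chosen with earlier results of these data known. Values in every brain are given for the called genes with the 3 smallest p in each role, and other genes by means and ranges. Symbols were matched for 54723 of 54752 identifiers. Promoters are from RefSeq (GRCm38.p6). The rest of the study's data was not analysed here.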

Additional observations from a re-analysis of the deposited data

Results flagged for a closer look

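Each of the 43 genes was examined in both groups for a brain far from the other 3, and 3 of 86 groups of 4 stood out by Dixon's ratio at its 95% critical value. Chance alone flags about 1 in 20 groups. *Cdkn2d* was at 28.9 CPM in stressed F34 with the next brain at 30.5 CPM (ratio 0.937). *Tfdp1* was at 104 CPM in control M31 with the next brain at 101 CPM (ratio 0.866). *Cks1b* was at 26.9 CPM in stressed M29 with the next brain at 23.6 CPM (ratio 0.950). None of the 3 genes was called in stress.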

How the results depend on the processing

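The number of the 43 regulators called higher was 23 in the reported fit, 23 with median-of-ratios or upper-quartile factors, 21 without a filter on low counts, 20 without the sex term and 17 with DESeq2. It was between 17 and 23 when 1 brain was left out, lowest without F37, F34 or M29, and 0 were lower in each of these fits. The sign of a Log2FC changed in 3 cases, none of them called. *E2f4* was at -0.019 without M31, in a range of -0.019 to 0.079 over the brains left out. *Rbl2* was at -0.0016 without M30 and -0.0047 without F35, in a range of -0.0047 to 0.058. Over all genes 1160 were called higher and 748 with DESeq2. Cell type markers called higher fell from 22 to 14 with DESeq2. The other regulators called higher were 7, and between 4 (without M29) and 8 when 1 brain was left out. Markers called lower were 12, and between 7 (without F34) and 11. Genes called higher were between 736 (without M29) and 1057, against 1160 with all brains, and genes called lower between 854 (without M29) and 1308, against 1298. The cause was not tested. No paired analysis was possible because the animals carry different numbers in the 2 groups and come from different litters. Depth limits the least abundant genes most, as *Cdkn3* with 82 to 111 counts per brain had an SE of 0.11 where *Cdkn1b* had 0.03.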
